A study of Mus musculus with 19 samples.

Results

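6 miRNAs known from leukocytes and microglia were followed across Ago2-bound small RNA from mouse brain: miR-142-5p, miR-142-3p, miR-150, miR-146a, miR-223 and miR-21. They were chosen by name, with earlier results of these data known. All 6 were found among the 528 miRNA names of the deposited table, and all 6 passed the filter on low values. All mice were at postnatal day 56. Neuron classes carried Myc-tagged Ago2, which was precipitated with anti-Myc. In the neocortex they were Camk2a cells (C57BL/6 & BALB/c, 1 tissue per library, n = 3) and the cells of 3 classes from C57BL/6 & 129 mice with 4 tissues pooled per library, namely Gad2 (n = 3), PV (n = 2) and SST (n = 2). The last class was Purkinje cells of the cerebellum (C57BL/6 & black swiss, 3 tissues pooled, n = 3). Whole Cerebellum (C57BL/6 & black swiss, n = 3) and whole Neocortex (C57BL/6 & BALB/c, n = 3) were precipitated with anti-Ago2, from 1 tissue per library. The antibody changes with every comparison of a neuron class with its tissue, the pooling with all of them but Camk2a, and the strain with those of Gad2, PV and SST, so these cannot be told apart from the cell class. Excitatory neurons express Camk2a, and inhibitory neurons express Gad2, which makes GABA. Parvalbumin (PV) and somatostatin (SST) are proteins of particular groups of inhibitory interneurons. The labels name the classes and give no promoter or line that carries the tag.

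A miRNA guides Ago2 to messenger RNAs that pair with its seed, bases 2 to 8 from the 5′ end. Both arms of the miR-142 hairpin are made across the blood lineages, microglia included. miR-150 is a miRNA of mature lymphocytes that represses Myb, and miR-223 one of neutrophils and other myeloid cells. miR-146a is induced by NF-κB and represses Traf6 and Irak1 in the signalling of Toll-like receptors, and miR-21 is made in many cell types and represses Pdcd4. Because a bulk precipitate was sequenced, fewer cells of a type and less of a miRNA per cell cannot be told apart in whole tissue. In a neuron class, reads from the tagged cells and reads carried over from untagged cells cannot be told apart.

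The mature sequences are shown because the readout is a match to them, and capitals mark the seed. They come from RefSeq on GRCm38.p6, where 5 of the 6 names matched, as miR-142a-5p, miR-142a-3p, miR-146a-5p, miR-223-3p and miR-21a-5p. miR-146b, the paralog of miR-146a, is set beside it.
miR-142-5p: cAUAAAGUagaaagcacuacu
miR-142-3p: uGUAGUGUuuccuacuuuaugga
miR-146a: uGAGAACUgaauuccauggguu
miR-146b: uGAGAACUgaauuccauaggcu
miR-223: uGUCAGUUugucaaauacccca
miR-21: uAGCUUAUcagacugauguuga

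The 5 members with a sequence had 5 different seeds, while miR-146a and miR-146b shared theirs, GAGAACU. miR-146a and miR-146b share their first 17 bases and differ by G18A and U21C, counted from the 5′ end with the base of miR-146a first. The sources used here do not say whether the mapping could split reads between such close relatives.

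Both arms of miR-142 come from 1 hairpin of 64 bases at chr11:87756864-87756927 on the plus strand, shown with its arms in capitals, the 5p arm first.
Mir142 hairpin: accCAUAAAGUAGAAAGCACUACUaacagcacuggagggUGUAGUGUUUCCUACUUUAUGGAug

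In GENCODE M21 on GRCm38 the hairpin lies within the long noncoding RNA Mir142hg, with Mir142b on the opposite strand. The sources used here do not say whether the authors counted by strand. miR-146a (chr11:43374435-43374456, minus strand) and Mir150 overlap no other annotated gene. miR-21 (chr11:86584120-86584141, minus strand) lies within the protein-coding gene Vmp1, and miR-223 (chrX:96242884-96242905, plus strand) within the noncoding F630028O10Rik.

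The unit of level is RPM, a miRNA's reads per 1000000 of its library's miRNA reads. Libraries held 1229834 to 14249088 miRNA reads, so 3 reads, taken as the floor of detection, were worth 0.211 to 2.44 RPM, and many neuron values below rest on a few reads. Floors and intervals describe counting error alone, because amplified reads that carry no molecular identifier are not independent molecules. The labels do not say whether replicates are separate animals, so p-values measure the spread between libraries, which may be technical. The neuron label was checked with 7 neuronal names. miR-124, a miRNA of neurons, stood at 87.0% (SST) to 193% (PV) of the tissue mean in the 5 classes, miR-9 at 78.4% to 105% and miR-138 at 148% or more. miR-128 stood at 196% in Camk2a but at 2.41% to 11.6% in the other classes, miR-137 at 2.35% to 57.0%, and the minor arms miR-124* and miR-9* at 28.0% to 60.3%. By limma 3 of the 7 fell and 2 rose in Camk2a, 4 fell and 1 rose in Gad2 and in SST, 4 fell and 2 rose in PV, and 5 fell and 1 rose in Purkinje. 1 library stood apart for the members. In Purkinje replicate 2, 2 of the 367 miRNAs that averaged 10 RPM or more in some group were at least 4 times the mean of the other Purkinje libraries (on RPM + 1), and both were members, miR-146a and miR-142-5p. Purkinje results are therefore given with and without it.

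The mean level of 5 of the 6 miRNAs was lower in every neuron class than in its tissue, a difference that passed the test in each case except miR-146a in Camk2a, while miR-21 in PV and SST cells lay within the range of whole neocortex. Together the 5 took 38.7 to 39.9 RPM in Camk2a, 13.6 to 25.4 in Gad2, 21.7 to 25.5 in PV and 26.6 to 33.8 in SST libraries, against 405 to 460 RPM in Neocortex. They took 3.26 to 30.0 RPM in Purkinje libraries, against 502 to 575 RPM in Cerebellum. In neither tissue did a neuron library reach the range of its tissue.

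**Figure D1:**
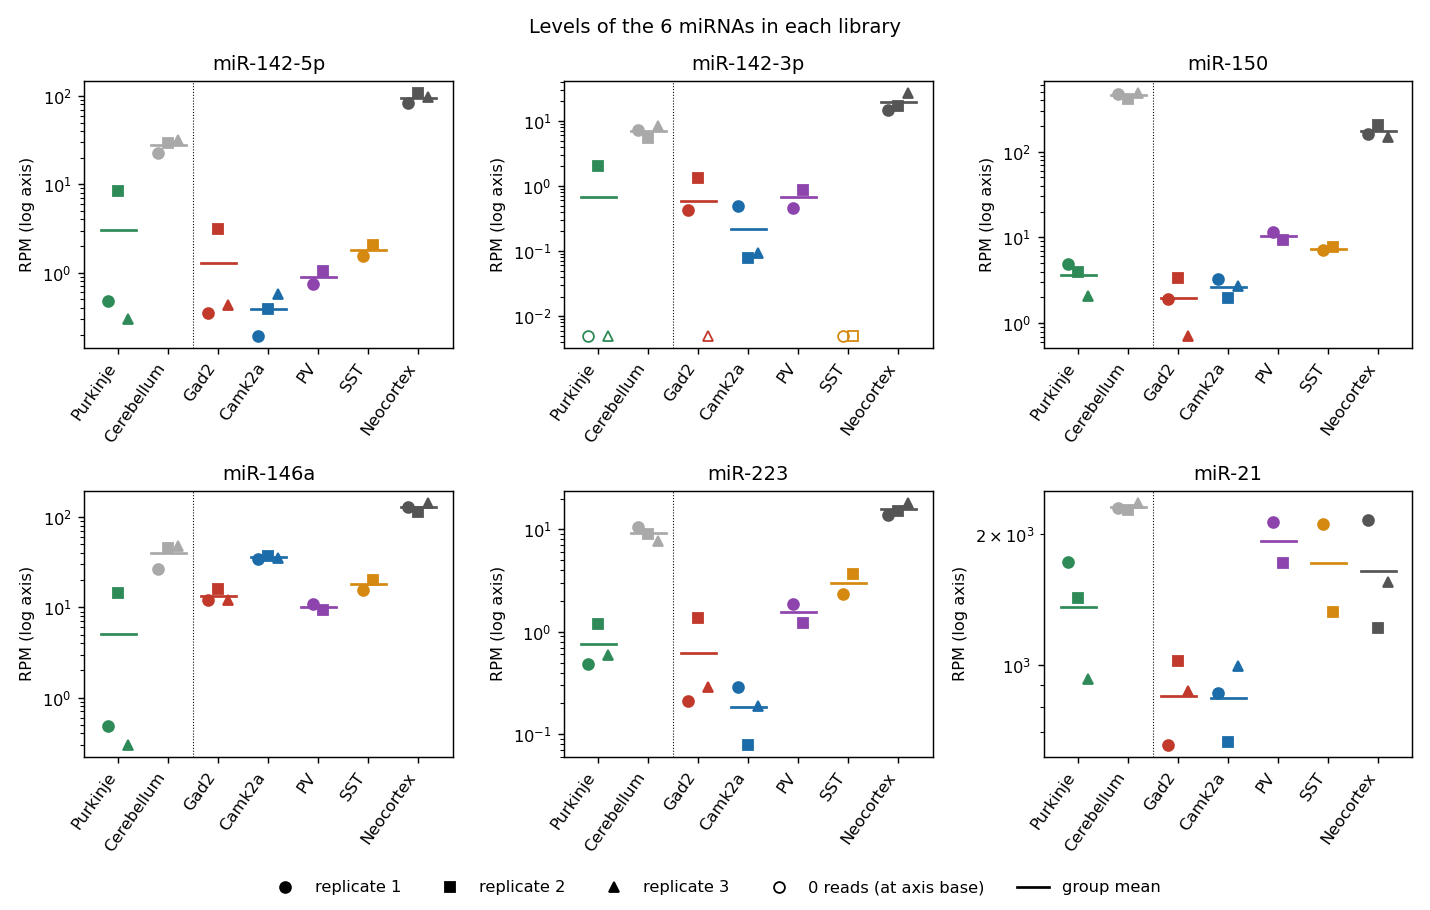
Level of each of the 6 miRNAs in every library, in RPM on a log axis, by group. Shapes are replicates, bars are group means, open symbols at the base have 0 reads, and the dotted line parts cerebellar (left) from neocortical groups. Whole tissues stand above their neuron classes in every panel but that of miR-21, where PV, SST and Neocortex overlap, and Purkinje replicate 2 (a square) stands above the other Purkinje libraries for miR-142-5p and miR-146a.

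The plot of levels by library shows the values of all 19 libraries for each miRNA. The 5p arm of miR-142 fell in all 5 neuron classes. miR-142-5p was at 0.194, 0.390 and 0.568 RPM in Camk2a libraries and 0.351, 3.10 and 0.430 RPM in Gad2 libraries. It was at 0.745 and 1.05 RPM in PV libraries and 1.56 and 2.03 RPM in SST libraries, against 83.8, 107.4 and 96.2 RPM in Neocortex libraries. These are 13 reads in all Camk2a libraries and 7 in all SST libraries, against 1659 in Neocortex, and no neuron library came near a tissue library. The fitted log2 change against Neocortex was -7.70 in Camk2a (SE 0.836, adjusted p = 3.41e-07), -6.70 in Gad2 (adjusted p = 1.66e-06), -6.60 in PV (adjusted p = 5.50e-06) and -5.66 in SST (adjusted p = 3.63e-05), in limma with Benjamini-Hochberg adjustment over the 522 miRNAs tested. Fitted changes are differences of mean log2(RPM + 0.1), so with so few reads they depend on the pseudocount and can be smaller or larger than the ratio of the mean levels. Without Gad2 replicate 2, which held 23 of the 31 Gad2 reads, the change in Gad2 was -7.61 (limma, adjusted p = 7.34e-07). In the cerebellum miR-142-5p was at 0.485, 8.41 and 0.296 RPM in Purkinje libraries, against 22.8, 29.5 and 31.7 RPM in Cerebellum libraries. Replicate 2 held 21 of the 23 Purkinje reads, and still lay below all Cerebellum libraries. The log2 change was -4.47 (limma, adjusted p = 8.14e-05), -5.85 without replicate 2 (limma, adjusted p = 1.15e-07) and -3.64 without replicate 3 (limma, adjusted p = 9.50e-04). The 2 reads of the other 2 libraries put their level at 1.28% of that of Cerebellum, with an exact 95% interval of 0.153% to 4.68%.

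miR-142-3p, the other arm, was the scarcer one in tissue and reached 0 reads in 5 neuron libraries. It was at 0.485, 0.0780 and 0.0950 RPM in Camk2a libraries, 0.421, 1.35 and 0 RPM in Gad2 libraries and 0.466 and 0.874 RPM in PV libraries, against 14.9, 17.1 and 26.8 RPM in Neocortex libraries. Neither SST library held a read of it. A floor of 3 reads over both SST libraries is 0.803 RPM, so SST was at least 24.4-fold lower than the Neocortex mean of 19.6 RPM. All neuron libraries were below all tissue libraries, and miR-142-3p fell in Camk2a (log2 change -6.13, limma adjusted p = 4.17e-05), Gad2 (-5.49, limma adjusted p = 1.04e-04), PV (-4.68, limma adjusted p = 0.0011) and SST (limma adjusted p = 7.59e-06). The Gad2 change was -6.38 without Gad2 replicate 2 and -4.46 without Gad2 replicate 3, and limma called it in both. In Purkinje libraries it was at 0, 2.0 and 0 RPM, against 7.32, 5.47 and 8.34 RPM in Cerebellum libraries. All 5 Purkinje reads came from replicate 2. The log2 change was -4.67 (limma, adjusted p = 2.46e-04) and -3.94 without either replicate 1 or replicate 3 (limma, adjusted p = 0.00268 or less), and without replicate 2 the level was at least 12.8-fold lower than the Cerebellum mean.

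miR-150 was the member whose level was highest in a tissue after miR-21, and the only one of the other 5 with more in Cerebellum than in Neocortex. It was at 3.30, 1.95 and 2.74 RPM in Camk2a libraries and 1.90, 3.37 and 0.716 RPM in Gad2 libraries. PV libraries had 11.6 and 9.27 RPM and SST libraries 7.04 and 7.73 RPM, against 162, 205 and 147 RPM in Neocortex libraries. PV and SST libraries lay above all Camk2a and Gad2 libraries, and all neuron libraries lay far below Neocortex. The log2 change against Neocortex was -5.97 in Camk2a (SE 0.412), -6.58 in Gad2 (SE 0.412), -4.02 in PV (SE 0.460) and -4.51 in SST (SE 0.460), each called by limma with an adjusted p of 3.34e-07 or less. In the cerebellum miR-150 was at 4.85, 4.00 and 2.07 RPM in Purkinje libraries, against 472, 413 and 479 RPM in Cerebellum libraries. That is a log2 change of -7.00 (SE 0.412, limma adjusted p = 6.90e-12), and here replicate 2 was not the highest of its group, with a change of -7.11 without it.

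miR-223 was the scarcest member in whole neocortex. It was at 0.291, 0.0780 and 0.189 RPM in Camk2a libraries, 0.211, 1.35 and 0.286 RPM in Gad2 libraries, 1.86 and 1.22 RPM in PV libraries and 2.35 and 3.66 RPM in SST libraries, against 14.0, 15.1 and 18.2 RPM in Neocortex libraries. SST libraries were the highest of the neuron classes and Camk2a libraries among the lowest, with 12 reads in SST and 6 in Camk2a in all. The log2 change against Neocortex was -5.86 in Camk2a, -4.82 in Gad2, -3.29 in PV and -2.38 in SST, each called by limma with an adjusted p of 0.00228 or less, and -5.51 in Gad2 without Gad2 replicate 2. Purkinje libraries had 0.485, 1.20 and 0.592 RPM, against 10.6, 9.11 and 7.79 RPM in Cerebellum libraries. None overlapped, and the log2 change was -3.51 (limma, adjusted p = 8.00e-06), or -3.85 without replicate 2.

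miR-146a kept the largest share of its tissue level among the 5 in Camk2a cells. It was at 34.4, 37.4 and 35.5 RPM in Camk2a libraries, 12.0, 16.2 and 12.2 RPM in Gad2 libraries, 10.8 and 9.27 RPM in PV libraries and 15.6 and 20.3 RPM in SST libraries, against 130, 115 and 145 RPM in Neocortex libraries. Camk2a libraries lay close together, above every Gad2, PV and SST library and below every Neocortex library. miR-146a fell in Gad2 (log2 change -3.27, limma adjusted p = 0.00191), PV (-3.68, limma adjusted p = 0.00142) and SST (-2.85, limma adjusted p = 0.00973). The SST call was lost without SST replicate 1 (limma, adjusted p = 0.0679). In Camk2a the log2 change of -1.85 (SE 0.788) did not pass the threshold, with an adjusted p of 0.0629 in limma. Without Purkinje replicate 2, which enters the spread that all groups share, the same change had an adjusted p of 2.43e-05 in limma, and edgeR (adjusted p = 0.00265) and DESeq2 (adjusted p = 0.0403) on the recovered reads called it. miR-146a was at 0.485, 14.4 and 0.296 RPM in Purkinje libraries, against 26.8, 45.6 and 47.8 RPM in Cerebellum libraries. Replicate 2 held 36 of the 38 Purkinje reads and was 36.9 times the mean of the other 2 libraries. The log2 change was -4.70 (limma, adjusted p = 2.31e-05), -6.34 without replicate 2 (limma, adjusted p = 9.95e-13), -4.02 without replicate 1 and -3.74 without replicate 3 (limma, adjusted p = 2.85e-04 or less in both).

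The paralog with the same seed, miR-146b, is set beside miR-146a, with no test of the difference between them. miR-146b was at 149, 150 and 173 RPM in Camk2a libraries, 251, 310 and 375 RPM in Gad2 libraries, 210 and 197 RPM in PV libraries and 499 and 391 RPM in SST libraries, against 201, 207 and 296 RPM in Neocortex libraries. SST libraries lay above all Neocortex libraries and Camk2a libraries below them. It rose in SST (log2 change 0.93, limma adjusted p = 0.00181) and fell in Camk2a (-0.56, limma adjusted p = 0.0334), where the call was lost with values divided by TMM factors (-0.25, limma adjusted p = 0.359). It also fell in Purkinje cells (-1.43, limma adjusted p = 3.59e-06), with 84.3, 56.1 and 82.9 RPM in Purkinje libraries, against 173, 215 and 206 RPM in Cerebellum libraries. Purkinje replicate 2, the highest library of its group for miR-146a, was the lowest for miR-146b. In Gad2 the log2 change of miR-146b, 0.41 (limma, adjusted p = 0.108), did not pass. It was called higher there with TMM factors (0.57, limma adjusted p = 0.0343), in edgeR (0.55, adjusted p = 0.0316) and in DESeq2 (0.48, adjusted p = 0.0385).

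miR-21 differed from the other 5 both in level and in pattern. It was at 860, 664 and 994 RPM in Camk2a libraries and 653, 1018 and 869 RPM in Gad2 libraries, 2132 and 1713 RPM in PV libraries and 2107 and 1319 RPM in SST libraries, against 2151, 1214 and 1554 RPM in Neocortex libraries. Camk2a and Gad2 libraries lay below all Neocortex libraries, whereas PV and SST libraries lay within their range. miR-21 fell in Camk2a (log2 change -0.95, SE 0.246, limma adjusted p = 0.00434) and Gad2 (-0.94, SE 0.246, limma adjusted p = 0.00388). The change of 0.26 in PV (95% interval -0.31 to 0.84, limma adjusted p = 0.456) and of 0.06 in SST (95% interval -0.51 to 0.64, limma adjusted p = 0.877) did not pass. All PV and SST libraries were above all Camk2a and Gad2 libraries, a difference that was not tested. Purkinje libraries had 1726, 1425 and 929 RPM, against 2290, 2271 and 2359 RPM in Cerebellum libraries. The log2 change of -0.81 (limma, adjusted p = 0.00662) was lost with values divided by TMM factors (-0.51, limma adjusted p = 0.0780), in edgeR (adjusted p = 0.0892) and without Purkinje replicate 3 (-0.56, limma adjusted p = 0.0581).

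**Figure D2:**
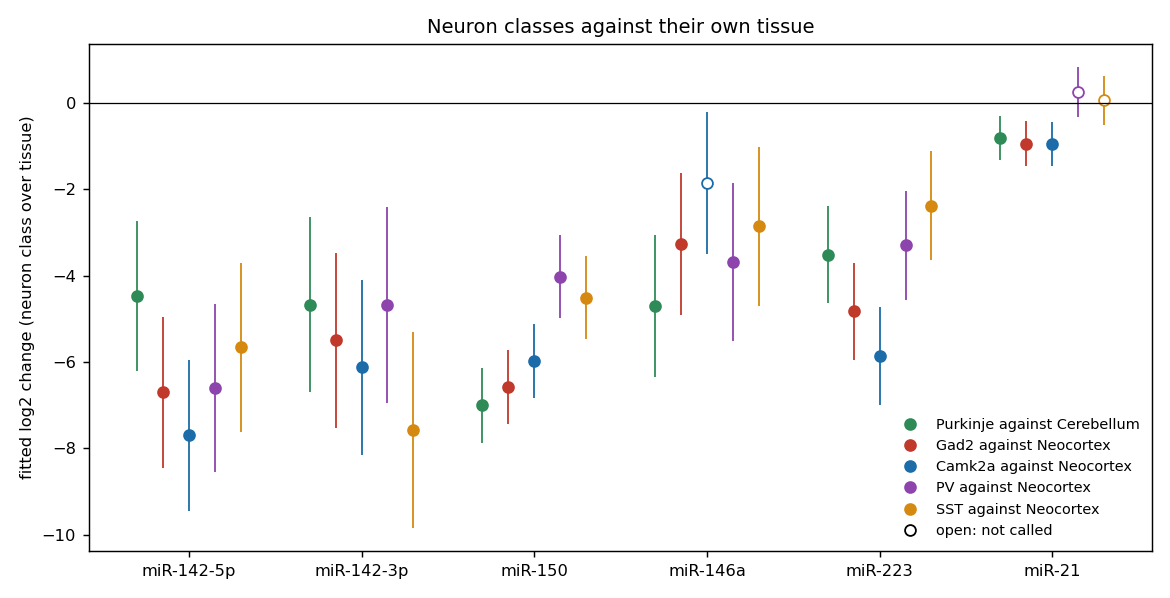
Fitted log2 change of each miRNA in 5 neuron classes against their own tissue, with 95% intervals from limma that are not adjusted for the number of miRNAs. Filled points were called at an adjusted p under 0.05 and open points were not. Changes of 5 miRNAs lie between -7.70 (miR-142-5p in Camk2a) and -1.85 (miR-146a in Camk2a), and those of miR-21 between -0.95 and 0.26. The SST value of miR-142-3p has 0 reads behind it and depends on the pseudocount.

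Counted over the 6 members, 5 fell and 1 was not called in Camk2a against Neocortex, where 28.0% of all miRNAs tested were called lower. In Gad2 all 6 fell, where 24.3% of all miRNAs were called lower. In PV and in SST 5 fell and miR-21 was not called, where 29.3% and 21.5% of all miRNAs were called lower. In Purkinje all 6 fell, where 37.4% of all miRNAs were called lower. The share of all miRNAs called higher was 16.9% in Camk2a, 20.7% in Gad2, 19.3% in PV, 31.0% in SST and 31.2% in Purkinje. The members' median log2 change was -5.92 in Camk2a, -5.16 in Gad2, -3.85 in PV, -3.68 in SST and -4.57 in Purkinje, beside medians of all miRNAs of -0.25, -0.09, -0.21, 0.13 and -0.19 in the same order. The members were chosen with earlier results of these data known, so these counts and medians are a description and no independent support. The plot of log2 changes shows that the intervals of 5 miRNAs lie below 0 in every class. Dividing by TMM factors moved the median of all miRNAs to between -0.07 and 0.03 in these comparisons, and the members' calls stayed at 5, 6, 5 and 5 in the neocortical classes and came to 5 in Purkinje. The split of all calls in Camk2a moved with this scaling, with 37.6% of calls higher as deposited and 55.7% with TMM factors.

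Levels in the precipitate of each class were also expressed as a share of the tissue mean, with no test between the classes. Markers of other cells, treated below, stood in Camk2a at 0.412% (miR-451), 1.14% (miR-143) and 25.9% (miR-126-3p). Camk2a cells had 0.401% of the Neocortex level of miR-142-5p, 1.12% of miR-142-3p, 1.55% of miR-150, 1.18% of miR-223 and 27.5% of miR-146a. The 1.12% rests on Camk2a replicate 1, which held 5 of 7 reads, and was 0.442% without it. Gad2 cells had 1.35%, 3.01%, 1.16%, 3.90% and 10.3% of them in the same order. Without Gad2 replicate 2, the highest library of its group for each, these shares were 0.408%, 1.08%, 0.761%, 1.58% and 9.29%. In SST cells miR-223 stood at 19.0% and miR-150 at 4.30%. PV cells had 9.78% of the Neocortex level of miR-223 and 6.09% of that of miR-150. In Purkinje cells miR-150 was at 0.801% of the Cerebellum mean, the lowest of the 6 over all 3 libraries. The shares of 10.9% for miR-142-5p, 9.48% for miR-142-3p and 12.6% for miR-146a in Purkinje cells rest on replicate 2, and for miR-146a the share of the other 2 libraries together was 0.864% (exact 95% interval 0.104% to 3.15%). miR-21 was at 51.2% in Camk2a, 51.7% in Gad2 and 59.0% in Purkinje cells, and at 117% in PV and 104% in SST cells.

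**Figure D3:**
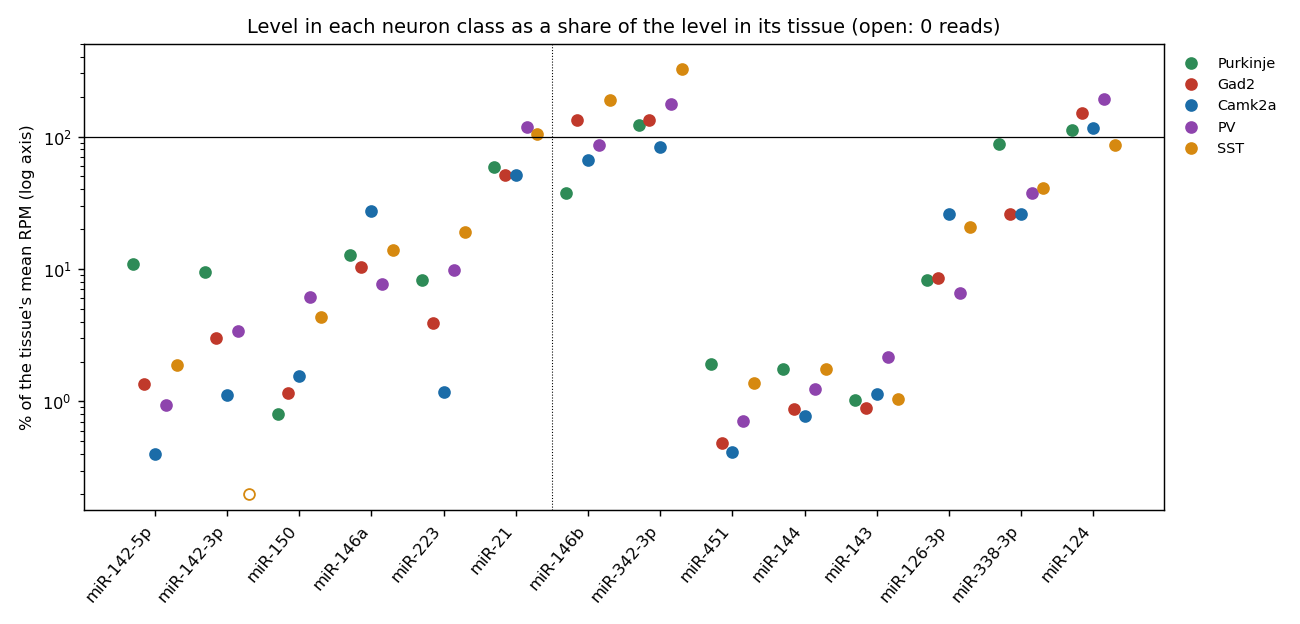
Mean level in each neuron class as a percentage of the mean level in its tissue, on a log axis, for the 6 miRNAs (left of the dotted line) and for relatives and markers of other cell types (right). The line marks 100% and the open point has 0 reads. Among the miRNAs at right, miR-451 lies at 0.412% to 1.91% and miR-143 at 0.897% to 2.16%, as low as miR-142-5p in the neocortical classes, while miR-342-3p lies at 83.5% to 324%.

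Levels of markers of other cells also differed between neuron classes and tissue, and their part in the result was not tested. Of 7 erythroid names, 3 to 4 fell and 2 rose in each class. The 2 that rose were miR-486 and miR-3107, which are near-identical and count 1 measurement more than once. The summed erythroid level was 75.5 to 87.3 RPM in Camk2a, 132 to 320 in Gad2, 452 to 471 in PV and 540 to 660 in SST libraries, against 1563 to 3790 RPM in Neocortex. It was 2516 to 3126 RPM in Purkinje, against 2657 to 3179 RPM in Cerebellum, so there the sums overlapped. That overlap rests on the repeated measurement, since miR-486 and miR-3107 each averaged 1426 RPM in Purkinje, against 351 RPM each in Cerebellum. The red-cell miRNA miR-451 fell in every class, to 8.07 to 38.3 RPM in the libraries of the neocortical classes, against 1432 to 3652 RPM in Neocortex, with a log2 change of -7.82 in Camk2a (limma, adjusted p = 1.86e-14). It stood at 40.2, 47.2 and 33.1 RPM in Purkinje libraries, against 1885 to 2421 RPM in Cerebellum libraries. For miR-144 of the same list, too, Purkinje replicate 2 was the highest of its group, with 8 of 12 reads and 3.20 RPM. The minor arm miR-144* had 0 reads in Camk2a, SST and Purkinje, and miR-3107* in Camk2a.

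All 3 vascular and mural names in the table fell in every class. Their sum was 934 to 993 RPM in Camk2a, 295 to 354 in Gad2, 295 to 330 in PV and 734 to 766 in SST libraries, against 7841 to 8178 RPM in Neocortex. In Purkinje it was 323 to 424 RPM, against 5810 to 6312 RPM in Cerebellum. Among them miR-126-3p, a miRNA of endothelium, kept 25.9% of its Neocortex level in Camk2a and 20.9% in SST cells, more than in Gad2 (8.61%) and PV (6.64%). miR-146a stood at 27.5%, 13.8%, 10.3% and 7.71% in the same 4 classes. miR-126-5p ranged in them from 4.14% in PV to 21.6% in Camk2a, while miR-143, a miRNA of smooth muscle and mural cells, stood at 1.14%, 1.04%, 0.897% and 2.16%, highest in PV. All 4 oligodendrocyte names fell in the neocortical classes, while in Purkinje 1 fell and 3 were not called. Their sum was 666 to 1219 RPM over the neocortical classes, against 2155 to 3401 RPM in Neocortex, and 2743 to 3249 RPM in Purkinje, against 3364 to 3564 RPM in Cerebellum. No vascular or oligodendrocyte name was at 0 reads in a group. miR-145 and miR-143* were not analysed here.

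A wider list of leukocyte and macrophage miRNAs was counted in the same comparisons, and its difference from the members was not tested. Of its 12 names 8 were in the table and 7 passed the filter, some of them minor arms near the floor even in tissue. In Camk2a 2 of the 7 fell, a share close to the 28.0% of all miRNAs, and in Gad2 none was called by limma. In PV 1 rose, in SST 2 rose and in Purkinje 1 fell. Of all miRNAs 19.3% were called higher in PV, 31.0% higher in SST and 37.4% lower in Purkinje. For Gad2, 1 of the 7 had an unadjusted p under 0.05 in limma, while edgeR called 2 and DESeq2 called 1, all higher. The sum of the 8 was 500 to 866 RPM in Camk2a, 982 to 1276 in Gad2, 1243 to 1430 in PV and 2093 to 2920 in SST libraries, against 667 to 1047 RPM in Neocortex. In Purkinje it was 1082 to 1538 RPM, against 1051 to 1306 RPM in Cerebellum. Most of it was miR-342-3p, from an intron of Evl and known in lymphocytes, which rose in PV (log2 change 0.86, limma adjusted p = 0.0191) and SST (1.72, limma adjusted p = 5.40e-05). Its levels of 2388 and 1677 RPM in SST libraries were above all Neocortex libraries, at 442 to 821 RPM. The minor arm miR-146a* had 0 reads in all 5 neuron classes and in Cerebellum, and miR-223* had 0 in all 5 classes. Neocortex itself held 2 reads of each, under the floor of 3 reads, so a difference was not detectable at this depth. miR-155, miR-511, miR-147 and miR-196b were not analysed here.

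Between the tissues, Cerebellum differed from Neocortex most firmly in miR-150. At 472, 413 and 479 RPM in Cerebellum libraries, against 162, 205 and 147 RPM in Neocortex libraries, miR-150 rose with a log2 change of 1.42 (SE 0.412, limma adjusted p = 0.00649). It was the 1 member of 6 called, where 19.5% of all miRNAs were called higher and 36.0% lower. miR-142-5p, with 22.8 to 31.7 RPM in Cerebellum libraries against 83.8 to 107.4 RPM in Neocortex libraries, had a log2 change of -1.78 (95% interval -3.52 to -0.03, limma adjusted p = 0.0777). miR-146a had -1.74 (limma, adjusted p = 0.0688), miR-142-3p -1.44, miR-223 -0.78 and miR-21 0.53 (limma, adjusted p = 0.0740). For all 6 miRNAs the libraries of the tissues did not overlap, as was so for 60.7% of all miRNAs tested. Without Purkinje replicate 2 in the shared spread, limma called miR-142-5p (adjusted p = 0.0120) and miR-146a (adjusted p = 2.42e-05) lower in Cerebellum as well. Over all 19 libraries edgeR called 4 members, 1 higher and 3 lower in Cerebellum. DESeq2 called 2 higher and 0 lower, so it called neither miR-142-5p nor miR-146a lower. Without Neocortex replicate 1 miR-21 was called higher (log2 change 0.75, limma adjusted p = 0.0204). The strains also differ between these tissues, and strain and tissue cannot be told apart.

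**Figure D4:**
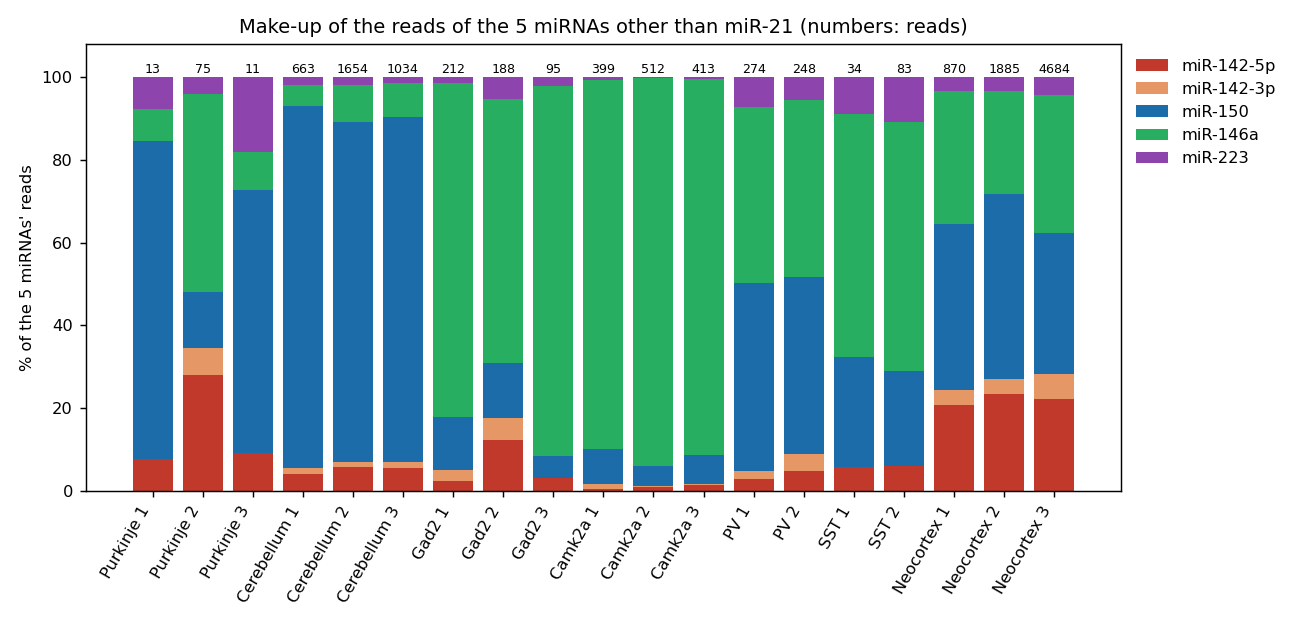
Make-up of the reads of the 5 miRNAs other than miR-21 in each library, as a percentage of their summed reads, with that sum above each bar. miR-150 takes 82.2% to 87.5% in Cerebellum and miR-146a 89.0% to 93.8% in Camk2a. Purkinje replicates 1 and 3 rest on 13 and 11 reads.

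The make-up of the members' reads differed between groups. miR-21 took 94.3% to 96.2% of the reads of all 6 in Camk2a, 97.6% to 98.5% in Gad2, 97.5% to 98.8% in PV and SST and 97.9% to 99.7% in Purkinje libraries, against 80.4% to 81.9% in Cerebellum and 72.5% to 84.2% in Neocortex. The plot of the make-up sets the other 5 side by side. miR-146a took 89.0% to 93.8% of their reads in Camk2a libraries, against 25.0% to 33.5% in Neocortex libraries. miR-150 took 82.2% to 87.5% in Cerebellum libraries, against 34.0% to 44.6% in Neocortex libraries. miR-142-5p took 4.22% to 5.86% in Cerebellum, against 20.7% to 23.3% in Neocortex. In PV libraries miR-150 and miR-146a took like shares, between 42.3% and 45.6% each. Purkinje replicate 2 held 75 reads of the 5, of which miR-146a took 48.0%, against 7.69% and 9.09% in replicates 1 and 3.

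Of the pairs of neuron classes within the neocortex, Gad2 with Camk2a and PV with SST were tested, and limma called no member in either. In Gad2 against Camk2a, where 38.1% of all miRNAs were called, none of the 6 had an unadjusted p under 0.05 in limma, DESeq2 called none and edgeR called 1, miR-146a (log2 change -1.56, adjusted p = 0.00391). Its limma change was -1.42, with no overlap between 12.0 to 16.2 RPM in Gad2 libraries and 34.4 to 37.4 RPM in Camk2a libraries, and it was called in limma without Purkinje replicate 2 (adjusted p = 3.93e-04). Without Gad2 replicate 2, the highest library of the Gad2 group for all 6 members, miR-150 was called lower in Gad2 (-1.08, limma adjusted p = 0.0464). Strain and pooling also differ between these classes and cannot be told apart from the class. Of all calls 56.3% were higher in Gad2, and 44.5% with TMM factors. miR-126-3p stood at 215 to 250 RPM in Gad2, against 663 to 722 RPM in Camk2a libraries, and its part in the result was not tested. In PV against SST, where 29.1% of all miRNAs were called (152, and 94 without PV replicate 1; 13.8% of calls higher in PV, and 41.7% with TMM factors), limma, edgeR and DESeq2 called no member, and 1 had an unadjusted p under 0.05 in limma. It was miR-142-3p, with 15 reads in PV libraries and 0 reads in SST libraries. The depth was 22177295 reads in PV and 3736451 in SST, so the PV mean of 0.670 RPM lies below the SST floor of 0.803 RPM and the difference was not detectable at this depth, although limma called it without Purkinje replicate 2 in the shared spread (adjusted p = 0.0183).

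Whether Purkinje cells and Gad2 cells, both GABAergic, stood in the same relation to their tissue was tested as a difference of log2 changes. limma called no member, where 45.8% of all miRNAs were called, and none had an unadjusted p under 0.05. edgeR called 1, miR-142-5p, and DESeq2 none. For miR-142-5p the Purkinje change minus the Gad2 change was 2.23 (95% interval -0.24 to 4.70, limma adjusted p = 0.135). It was called without Gad2 replicate 2 (3.14, limma adjusted p = 0.0306) and without Purkinje replicate 3 (3.07, limma adjusted p = 0.0351). Without Purkinje replicate 2 alone it was 0.85, the lowest value with a library left out, and was not called. With Purkinje replicate 2 and Gad2 replicate 2 both left out, a setting added after seeing the data, it was called (1.76, limma adjusted p = 0.0321). miR-223 was called without Gad2 replicate 2 (2.0, limma adjusted p = 0.0245). For miR-146a the difference was -1.43 (limma, adjusted p = 0.332), -3.07 without Purkinje replicate 2 (limma, adjusted p = 4.55e-06) and -2.93 without Gad2 replicate 2 as well (limma, adjusted p = 2.19e-05).

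The groups were ordered alike for the 2 arms of miR-142 at the top. For miR-142-5p Neocortex (95.8 ± 11.8 RPM, SD, n = 3) stood first, Cerebellum (28.0 ± 4.65, SD, n = 3) next, and then Purkinje, SST, Gad2, PV and Camk2a, where each overlapped its neighbour except PV and Camk2a. For miR-142-3p the tissues again came first, and the classes followed as PV, Purkinje, Gad2 and Camk2a, each of which overlapped its neighbour. SST, at 0 reads, could not be placed, since its floor of 0.803 RPM lies above the mean of every other class. For miR-150 Cerebellum (455 ± 36.4 RPM, SD, n = 3) was above Neocortex (172 ± 30.0, SD, n = 3), and PV and SST were apart from each other and from Purkinje, which overlapped Camk2a, as Camk2a did Gad2. For miR-223 the order was Neocortex, Cerebellum, SST, PV, Purkinje, Gad2 and Camk2a, with overlap among the last 3. For miR-146a Cerebellum (40.1 ± 11.5 RPM, SD, n = 3) overlapped Camk2a (35.8 ± 1.52, SD, n = 3). For miR-21 only Cerebellum stood apart, and every later neighbour in the order PV, SST, Neocortex, Purkinje, Gad2 and Camk2a overlapped the next.

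Likeness was measured as Pearson's r over the 7 group means of log2(RPM + 1), as a description, since the points share 2 tissues, their antibodies and the scaling of each library. The arms of miR-142 had r = 0.971 with each other. miR-142-5p had r = 0.931 with miR-223, 0.890 with miR-150 and 0.723 with miR-146a, and 0.519 with miR-21. miR-146a and miR-21 were the least alike of the members, at r = 0.135. Among 361 other miRNAs, those nearest to miR-142-5p were miR-322* (0.981), miR-451 (0.975) and miR-144 (0.969), and nearest to miR-142-3p were miR-322*, miR-181a-2* (0.965) and miR-144. Nearest to miR-150 were miR-144 (0.967), miR-451 (0.960) and miR-669o-3p (0.948), and nearest to miR-223 were miR-322 (0.986), miR-451 (0.943) and miR-144 (0.940). miR-146a was nearest to miR-221* (0.959), miR-18a (0.945) and miR-17 (0.927). miR-21 had no neighbour above 0.900, the nearest being miR-466a-3p, miR-466b-3p and miR-466e-3p, the last 2 with the same group means.

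The balance of the miR-142 arms was compared because both come from the hairpin printed above. In whole tissue the 5p arm took 75.7%, 84.3% and 79.2% of the reads of both arms in Cerebellum libraries and 84.9%, 86.3% and 78.2% in Neocortex libraries. Summed over libraries, it took 65.0% of 20 reads in Camk2a (95% Wilson interval 43.3% to 81.9%), 66.0% of 47 in Gad2 (51.7% to 77.8%), 57.1% of 35 in PV (40.9% to 72.0%) and all 7 in SST, against 80.9% of 2050 reads in Neocortex (79.2% to 82.6%). In Purkinje it took 82.1% of 28 reads, 26 of them from replicate 2, against 81.2% of 224 reads in Cerebellum. The log2 ratio of 5p to 3p reads, with 0.5 reads added to each, was 1.32 ± 1.45 (SD, n = 10) in neocortical neuron libraries and 2.32 ± 0.42 (SD, n = 3) in Neocortex libraries. The difference of -1.0 was not significant in a two-sided exact permutation test over libraries (p = 0.287, smallest possible p 0.0035). With 5 reads added the difference was -1.78 (exact permutation p = 0.00699), a setting under which ratios built on few reads are drawn toward 0. miR-21*, the minor arm of miR-21, took 0.148% to 0.614% of the reads of both arms over the 19 libraries.

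**Figure D5:**
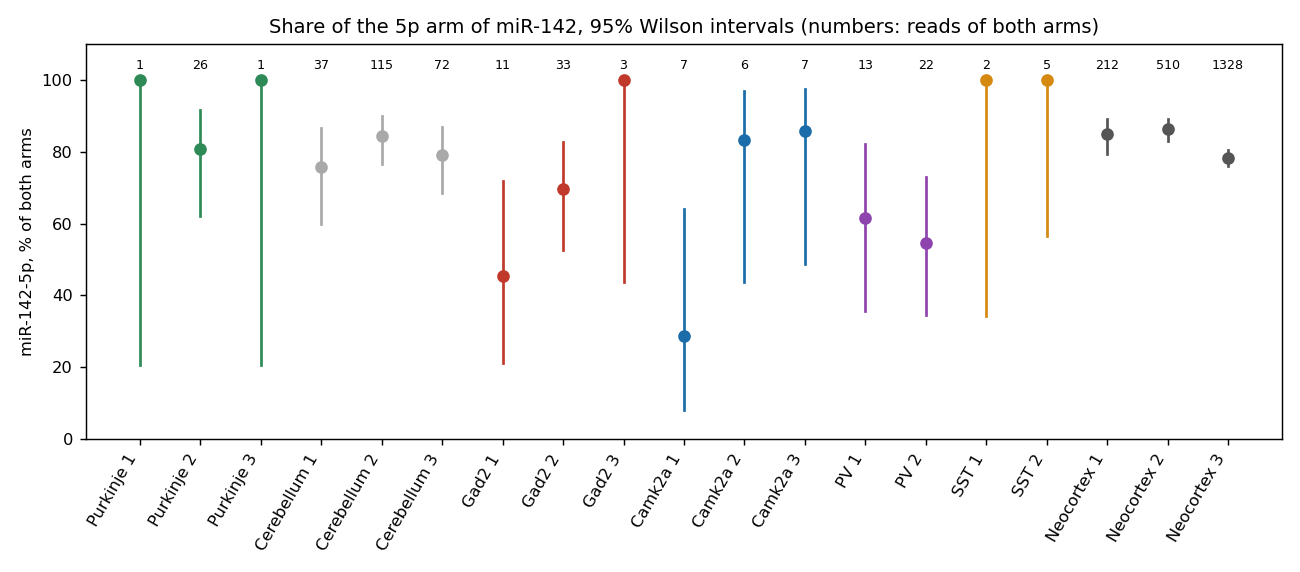
Share of miR-142-5p in the reads of both miR-142 arms in each library, with 95% Wilson intervals and the number of reads above. Whole-tissue libraries lie between 75.7% and 86.3%, while neuron libraries rest on 1 to 33 reads and their intervals are wide.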

How the data were processed

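Small RNA of 19 to 24 nt from immunoprecipitated Ago2 was sequenced for 36 cycles on an Illumina Genome Analyzer II, per the labels' protocols and the file headers. The submitters' processing notes name Bowtie, with no version in the sources used here, and the build mm9. The deposited signal is each library's read count scaled by the authors to a common total. Per the file headers the total is 1000000 miRNA reads. Since the columns each add up to 10000000, RPM was computed by dividing values by 10. Whole reads were recovered from the steps of the low values, and 98.5% to 100% of values per library came out whole within 0.1 reads.

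Samples were grouped by title into 7 groups. limma 3.58.1 (R 4.3.3, trend) was fitted on log2(value + 1), with 1 mean per group over 19 libraries, keeping the 522 miRNAs that reached a value of 1 in 2 libraries. Adjustment was by Benjamini-Hochberg over all 522, and miRNAs were called at an adjusted p under 0.05. Alternatives were a pseudocount of 10, no filter, TMM factors, edgeR 4.0.16 and DESeq2 1.42.0 on the recovered reads, a replicate block and leaving out each library. The 3 miRNAs most like each member were taken by r from those with a group mean of at least 10 RPM. Of other lists, at most 3 called miRNAs per comparison with a mean of at least 10 RPM were eligible to be named, while miR-146b and miR-342-3p, the named minor arms and list members at 0 reads were described after their values were seen. The script for the fit was tested on simulated data. There the most abundant miRNAs were held unchanged and no library was made to stand apart, so the test does not cover such cases. The members and lists were chosen with earlier results of these data known.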

Additional observations from a re-analysis of the deposited data

Results flagged for a closer look

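Libraries of different neuron classes lay on opposite sides of the tissue mean for miR-21. Both PV libraries lay above the Neocortex mean, while all Camk2a and Gad2 libraries lay below it and all Purkinje libraries lay below the Cerebellum mean. The fitted log2 change of PV exceeded that of Camk2a by 1.21, that of Gad2 by 1.20 and that of Purkinje by 1.07. These differences were not tested. PV and Neocortex libraries overlapped.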

How the results depend on the processing

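Across 54 results of single members, 654 of 708 alternative values kept direction and side of the threshold, 29 passed it anew, 4 lost it and 21 reversed. The cause was not tested. Of the member counts, that of Cerebellum against Neocortex (1) came to 5 with a pseudocount of 10, 4 in edgeR, 2 in DESeq2, 2 with a replicate block and 1 to 3 with a library left out. That of Gad2 against Camk2a (0) came to 1 in edgeR and 0 to 1 with a library left out, and that of PV against SST (0) to 1 without Purkinje replicate 2, a setting added after seeing the data. All calls in PV against SST (152) ranged from 94 to 151 with a library left out, and came to 153 with a replicate block. The Purkinje and Gad2 interaction (0) came to 2 with a pseudocount of 10, 1 in edgeR, 0 to 2 with a library left out, and 2 without Purkinje replicate 2 and Gad2 replicate 2. The arm difference (-1.0) was -1.78 with 5 reads added, and -1.23 to -0.72 with a library left out.

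Reversed values were all of results not called. miR-21 in SST against Neocortex (0.06) was -0.24 with TMM factors, -0.26 in edgeR, -0.31 in DESeq2 and -0.27 to 0.40 with a library left out. In Gad2 against Camk2a it (0.01) was -0.14 with TMM factors, -0.14 in edgeR, -0.16 in DESeq2 and -0.15 to 0.18 with a library left out, while miR-142-3p (0.63) ranged from -0.26 to 1.67. In PV against SST miR-21 (0.20) ranged from -0.14 to 0.54. In the interaction miR-146a (-1.43) was 0.32 in edgeR and 0.12 in DESeq2, and with a library left out miR-21 ranged from -0.087 to 0.38, miR-142-3p from -0.64 to 1.71 and miR-150 from -0.99 to 0.054.

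Samples of the same replicate number correlated in their deviations from group means by -0.23 to 0.18. The correlations were 0.06 to 0.18 in Camk2a against Neocortex and 0.03 to 0.07 in Purkinje against Cerebellum. The main fit did not take the numbers as pairs, and a replicate block was run as an alternative. Every library correlated best with its own number in Camk2a against Neocortex and Purkinje against Cerebellum (6 of 6 each), 4 of 6 did in Gad2 against Neocortex, and none did in Cerebellum against Neocortex or in Gad2 against Camk2a. A replicate block moved the calls over all miRNAs to 234 in Camk2a, 246 in Gad2, 252 in PV, 268 in SST and 361 in Purkinje, beside 234, 235, 254, 274 and 358 without it. It left 5, 6, 5, 5 and 6 members called. With the block miR-142-5p was called in Cerebellum against Neocortex (limma, adjusted p = 0.0476), and no other member's call changed.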
